A study of Mus musculus with 18 samples.

Results

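Mesenchymal stromal cells (MSCs) of the bone marrow (BM) are recognised by a set of surface proteins and by a few genes that marrow biologists use as shorthand for stromal identity. The expression of 10 such genes, Itgav, Pdgfra, Cd44, Thy1, Nt5e, Ly6a, Cd34, Alcam, Ngfr and Nes, was followed through 6 groups of Pot1a-deleted and control stromal cells. They are textbook markers of stroma named by symbol, and all 10 were found among the 24421 genes of both count tables. The naming rule uses no measured value, but the choice was made with earlier results of these data known. Itgav (CD51) and Pdgfra encode the pair of surface proteins by which the cultured cells had been sorted.

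MSCs give rise to bone, fat and cartilage cells and, in the marrow, support haematopoietic stem cells and B-cell precursors. The marker genes have separate jobs. Itgav is an integrin subunit that binds extracellular matrix and latent TGF-β, Pdgfra is a receptor for platelet-derived growth factors, and Cd44 binds hyaluronan. Nt5e (CD73) is an ectoenzyme that makes adenosine outside the cell, Thy1 (CD90) and Ly6a (Sca-1) are anchored to the membrane by a lipid, Cd34 is a sialomucin, Alcam (CD166) is an adhesion molecule, Ngfr (CD271) is the low-affinity neurotrophin receptor, and Nes (nestin) is an intermediate filament protein of stem and progenitor cells. POT1a, the protein removed here, covers the single-stranded end of telomeres.

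RNA was sequenced in 18 libraries, 3 per group, given by the study as 3 mice per group. Whether the same mice gave the week 1 and week 4 cultures is not stated, and the main tests treat all libraries as independent. For culture, BM cells of C57BL/6 mice aged 4 to 6 months that were Pot1a wild/wild or Pot1a flox/flox, all with a flox-stop-flox tdTomato reporter, were sorted for CD51 and PDGFRα and treated for 12 h with vesicles carrying Cre at 10 µL per well. Cells with tdTomato were sorted again after 48 h and collected at week 1 or week 4, and are called wt/wt and Δ/Δ, so that the controls met Cre as well. The other 6 libraries came directly from mice aged 2 weeks that carried NG2-cre and the tdTomato reporter, whose tdTomato+ marrow cells were sorted. They are called wt/Δ and Δ/Δ after the sample titles, whereas the genotype field of the labels gives the same text for all 6. NG2-cre is active in pericytes and stroma of other organs too, and the wt/Δ controls had lost 1 of their Pot1a alleles.

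The cultured libraries held 12807832 to 90717232 counts and the sorted ones 28918757 to 49992698. Levels are given as CPM, counts relative to the size of the library, scaled by TMM, a method that corrects for differences in RNA composition. The scale was set within each table, so levels of cultured and sorted cells are set side by side without a test. Pot1a itself was not lower in the cultured libraries labelled Δ/Δ, at 34.5 ± 3.41 against 34.9 ± 1.51 CPM at week 1 and 45.6 ± 2.62 against 34.9 ± 2.54 CPM at week 4 (SD, n = 3), with counts that cover all exons, so directions below follow the labels. In the sorted cells it had 26.9 ± 6.77 CPM in Δ/Δ against 30.4 ± 3.70 CPM in wt/Δ. The study itself checked the deletion by other means. It reported significantly less POT1a mRNA by qPCR and a band of the deleted allele in culture, and reduced POT1a by qPCR in the sorted cells. Both week 4 libraries numbered 1 stood apart from the others of their groups in the same way, with a correlation of 0.636 between their deviations from the group means across genes, and results that turn on them are given with and without them.

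The label MSC was first set against markers of other cells. In culture, 6 of 9 endothelial markers (among them Pecam1, Cdh5 and Kdr) and 7 of 10 haematopoietic markers (among them Ptprc, which encodes CD45) stayed under 1 CPM in every library, and the haematopoietic markers summed to 3.10 to 20.6 CPM. The 6 markers of CXCL12-abundant reticular (CAR) cells, the main supporting stroma of the marrow, summed to 2999 to 17012 CPM in the same libraries. Most of that sum was Cxcl12, with 2737 to 16204 CPM. Summed markers of osteoblasts (7 genes), mural cells (7) and chondrocytes (5) were also high in culture, though carried by part of each list. These sums were 4770 to 18173, 3717 to 8110 and 1220 to 8066 CPM, so the CAR sum does not set these cells apart. Most of the mural sum was Acta2, with 3681 to 7938 CPM, while Kcnj8 stayed under 1 CPM. The chondrocyte markers Acan, Col9a1 and Matn1 stayed under 1 CPM in every cultured library, and Bglap and Bglap2 did so at week 1. However, the classical MSC markers Thy1 and Ngfr were nearly absent from the cultured cells, and Cd34 was close to that limit. The sorted cells expressed CAR markers at 11824 to 35436 CPM and osteoblast markers at 11917 to 31690 CPM. Endothelial and haematopoietic markers were also present, at 1883 to 2726 and 1026 to 2355 CPM. In such bulk samples, fewer cells of a type and less RNA per cell cannot be told apart.

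Per kilobase of exon, the scale on which different genes can be compared, Ly6a was the highest of the markers in all 6 groups. It ranged from 55.9 CPM per kb in sorted Δ/Δ to 244 CPM per kb in wt/wt at week 4. Itgav came next in every cultured group, with 25.1 to 43.5 CPM per kb. In sorted cells Itgav ranked lower, with 7.56 CPM per kb in wt/Δ and 6.94 in Δ/Δ, and Cd34 came next to Ly6a with 14.6 and 18.8 CPM per kb. Pdgfra ranked below Cd44 in 3 cultured groups and above it in Δ/Δ at week 4, at 23.1 against 12.1 CPM per kb.

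**Figure D1:**
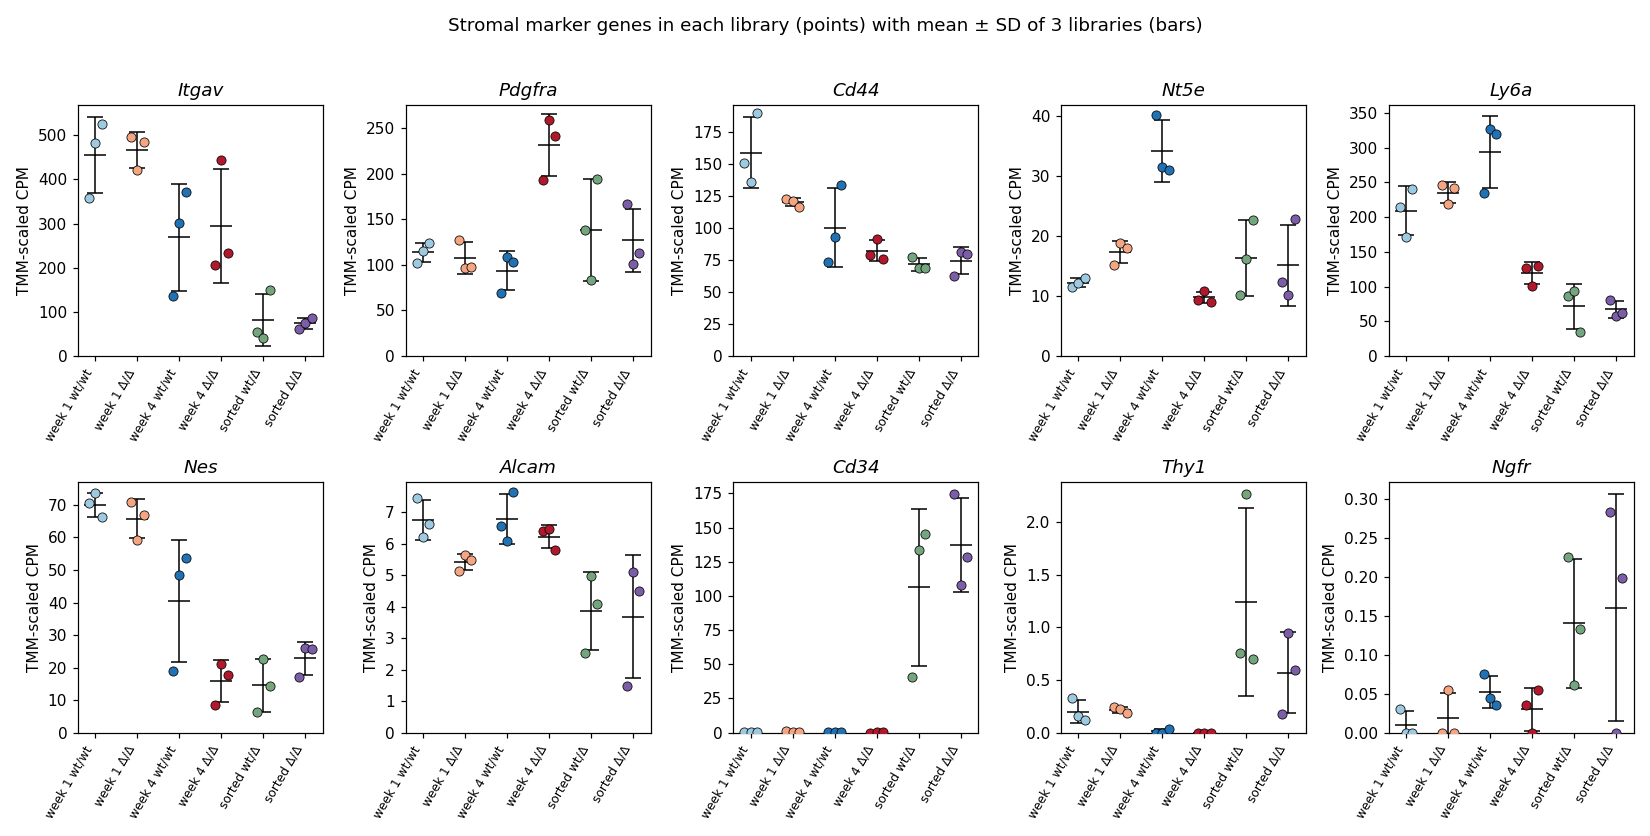
TMM-scaled CPM (linear axes from 0, a scale of its own for each gene) of the 10 marker genes in each of the 18 libraries, where each point is a library and the black bars show mean ± SD (n = 3). Pdgfra is highest in Δ/Δ at week 4, Nt5e in wt/wt at week 4, and Cd34 is seen only in sorted cells on this scale, with 0.907 CPM or less in culture.

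To evaluate whether the markers differed once Pot1a had been deleted, the genotypes were compared at each week of culture. At week 1 none of the 8 markers with enough counts for testing passed edgeR's quasi-likelihood test at an adjusted p of 0.05, where 1.02% of all 13169 genes did (0.752% higher, 0.266% lower). At week 4, 15.7% of genes were called, 9.2% higher and 6.46% lower in Δ/Δ, and 4 of the 8 markers were among them. Pdgfra was higher, while Ly6a, Nt5e and Nes were lower. Itgav, Cd44, Alcam and Cd34 were not called, and Thy1 and Ngfr had too few reads to be tested. The median log2 difference of the 8 tested markers at week 4 was -0.36, against 0.0024 over all genes tested.

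Pdgfra, the receptor used for the sort, spans chr5:75152292-75198215 on the forward strand of GRCm38. At week 4 its level was 69.1, 109 and 103 CPM in the wt/wt libraries and 193, 259 and 241 CPM in the Δ/Δ libraries. Every Δ/Δ library was above every wt/wt library. The difference was 2.47-fold, or 1.30 on the log2 scale (standard error 0.18, adjusted p = 3.1e-04, edgeR). The call was kept in all 14 alternative fits, with log2 values from 1.13 to 1.42. At week 1 the genotypes overlapped, at 102, 115 and 124 CPM in wt/wt and 128, 96.2 and 97.8 CPM in Δ/Δ, and the log2 difference was -0.09 (95% interval -0.47 to 0.30).

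The RefSeq promoter of Pdgfra, taken from 250 bases before to 50 after the start of the gene (GRCm38.p6, chr5:75152001-75152300, forward strand), is shown beside those of Nt5e and Nes, since the 3 genes differed between the genotypes at week 4 in opposite directions, the first up and the others down. Capitals mark every match, on either strand, to GGGCGG, the core of the GC box. The other motifs searched, also on both strands, were the TATA box (letters TATAAA), the CCAAT box (letters CCAAT), the E-box of MYC and USF proteins (letters CACGTG) and the STAT site (letters TTCNNNGAA), and none of them matched in these 3 windows.
Pdgfra: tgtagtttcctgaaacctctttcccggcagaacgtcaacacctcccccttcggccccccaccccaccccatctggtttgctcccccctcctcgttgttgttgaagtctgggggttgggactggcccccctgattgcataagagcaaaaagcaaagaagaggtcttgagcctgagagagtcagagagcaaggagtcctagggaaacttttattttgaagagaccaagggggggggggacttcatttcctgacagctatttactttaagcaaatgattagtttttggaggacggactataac
Nt5e: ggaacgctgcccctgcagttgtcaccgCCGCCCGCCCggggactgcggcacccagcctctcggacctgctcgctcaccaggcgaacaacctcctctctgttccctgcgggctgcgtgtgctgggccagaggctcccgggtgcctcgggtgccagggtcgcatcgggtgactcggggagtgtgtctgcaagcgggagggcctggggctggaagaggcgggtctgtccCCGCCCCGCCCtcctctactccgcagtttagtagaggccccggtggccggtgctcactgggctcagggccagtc
Nes: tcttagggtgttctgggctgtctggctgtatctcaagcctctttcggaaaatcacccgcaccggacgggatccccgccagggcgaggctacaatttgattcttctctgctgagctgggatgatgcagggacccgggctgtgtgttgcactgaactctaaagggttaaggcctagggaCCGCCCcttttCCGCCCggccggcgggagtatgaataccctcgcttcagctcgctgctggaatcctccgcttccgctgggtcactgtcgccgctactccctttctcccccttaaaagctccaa
The Nt5e window (chr9:88327359-88327658, forward strand) held 4 GGGCGG matches, which overlap in pairs, and 23 CG dinucleotides. The Nes window (chr3:87970843-87971142, forward strand) held 2 matches and 18 CG dinucleotides, and the Pdgfra window held no match and 5 CG dinucleotides. Of 32851 mouse promoter windows of this length 35.7% hold the GC box, 13.6% the TATA box, 37.4% the CCAAT box, 7.15% the E-box and 8.3% the STAT site, and the median number of CG dinucleotides is 7. A match describes these letters only. The promoter table has 8 of the 10 markers, and Ly6a and Thy1 were not matched in it. The GC box was also found in the windows of Itgav, Cd44 and Alcam, which were not called at week 4, and of the untested Ngfr. These held 24, 6, 25 and 23 CG dinucleotides. The window of Cd34, also not called, held no GC box and 7 CG dinucleotides. A link between promoter letters and the direction of a difference was not tested.

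Nt5e, on chr9:88327197-88372092, showed the clearest difference of the 8. In wt/wt at week 4 it had 40.3, 31.5 and 31.0 CPM, and in Δ/Δ it had 9.43, 10.8 and 9.08 CPM. The groups did not overlap, and Δ/Δ had 0.285 times the wt/wt level. The log2 difference was -1.81 (standard error 0.14, adjusted p = 3.5e-06), called in all 14 alternatives. At week 1 the order was the other way round, with 11.5, 12.2 and 13.0 CPM in wt/wt and 15.2, 18.8 and 18.05 CPM in Δ/Δ. These groups did not overlap either, but the log2 difference of 0.51 did not pass the test (95% interval 0.20 to 0.81, adjusted p = 0.119). DESeq2, the tool of the study, called it (adjusted p = 0.0424), and edgeR did not in any of its 12 other fits.

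Ly6a lies on the reverse strand at chr15:74994877-74998031. It had 234, 327 and 319 CPM in wt/wt at week 4, and 127, 101 and 130 CPM in Δ/Δ. Again every Δ/Δ library was below every wt/wt library. The fold was 0.406, and the log2 difference was -1.30 (standard error 0.16, adjusted p = 1.3e-04). It was called in all 14 alternatives, with values from -1.49 to -1.21. At week 1 the genotypes overlapped, at 215, 172 and 241 CPM in wt/wt and 245, 218 and 242 CPM in Δ/Δ (log2 difference 0.17, 95% interval -0.18 to 0.51).

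Part of the Ly6a signal may be shared with its neighbours in the Ly6 family. Of the 1311 windows of 75 bases in its exons, 83 (6.33%) also occur in other genes, 77 of them in Ly6c1, so counts of the pair cannot be told apart in those stretches. Ly6c1 is itself abundant in endothelium, and had 40.2, 51.4 and 54.2 CPM in wt/wt and 15.5, 14.2 and 16.8 CPM in Δ/Δ at week 4. It fell with Ly6a, at -1.65 on the log2 scale (standard error 0.14, adjusted p = 6.4e-06). The ratio of Ly6a to Ly6c1 was 5.34 to 6.47 at week 1 in both genotypes together and 5.83 to 6.37 in wt/wt at week 4, and it was 7.15 to 8.23 in Δ/Δ at week 4. The 9 endothelial markers, which include Ly6c1, summed to 49.98 to 62.5 CPM in wt/wt and 23.7 to 25.3 CPM in Δ/Δ at week 4, while Pecam1, Cdh5, Kdr, Emcn, Esam and Tie1 were under 1 CPM in every cultured library.

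Nes, on chr3:87971078-87980451, had 19.0, 48.5 and 53.8 CPM in wt/wt at week 4 and 8.59, 21.1 and 17.7 CPM in Δ/Δ. The groups overlapped, because the first wt/wt library lay below the second Δ/Δ library, and in both genotypes the library numbered 1 was the lowest. The log2 difference was -1.37 (standard error 0.35, adjusted p = 0.0179). It was kept without both libraries numbered 1 (-1.41, adjusted p = 5.3e-05). It was lost without wt/wt replicate 2 (-1.22, adjusted p = 0.0637), without wt/wt replicate 3 (-1.11, adjusted p = 0.0749) and when only the 6 week 4 libraries were fitted (-1.37, adjusted p = 0.0987). At week 1 the range was 66.2 to 73.5 CPM in wt/wt and 59.2 to 71.0 CPM in Δ/Δ, with a log2 difference of -0.09 (95% interval -0.83 to 0.64).

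Itgav, the other gene of the sort, at chr2:83724397-83806916, gave no such difference. It had 136, 300 and 372 CPM in wt/wt at week 4 and 207, 443 and 234 CPM in Δ/Δ. The groups overlapped over most of their range. The log2 difference was 0.13 with a 95% interval from -0.60 to 0.86 (adjusted p = 0.866). A change of the size seen in Pdgfra lies outside the interval, and changes within it are not excluded. The sign turned without wt/wt replicate 1 (-0.19) or Δ/Δ replicate 2 (-0.31). At week 1 Itgav had 358 to 525 CPM in wt/wt and 421 to 496 CPM in Δ/Δ (log2 difference 0.04, 95% interval -0.70 to 0.77).

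Cd44, the hyaluronan receptor, at chr2:102811141-102901665, was not called at either week. At week 1 it had 151, 136 and 190 CPM in wt/wt and 123, 121 and 117 CPM in Δ/Δ, which do not overlap (log2 difference -0.40, 95% interval -0.81 to 0.0057, adjusted p = 0.427). At week 4 it had 73.4, 93.4 and 134 CPM in wt/wt and 79.0, 91.7 and 76.1 CPM in Δ/Δ (-0.29, 95% interval -0.70 to 0.12, adjusted p = 0.375). The week 4 value rested on single wt/wt libraries, at -0.03 without replicate 3 and -0.47 without replicate 1. Alcam was the steadiest of the markers in culture, between 5.14 and 7.66 CPM in all 12 libraries. Its log2 differences were -0.32 at week 1 (adjusted p = 0.395) and -0.13 at week 4 (95% interval -0.43 to 0.17).

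The 3 remaining markers were near the limit of detection in culture. Cd34, which marks haematopoietic and endothelial progenitors and some fresh stroma, had 48 and 47 counts in all at week 1 in wt/wt and Δ/Δ, and 6 and 10 counts at week 4. Its genotype differences of 0.33 and -0.43 on the log2 scale had wide intervals (-0.47 to 1.13 and -1.96 to 1.10). Thy1 had 18 and 14 counts at week 1, and 1 and 0 counts at week 4. The 0 counts in Δ/Δ at week 4 allow up to 0.0216 CPM by counting error alone, taking 3 counts over the group as the limit. Ngfr had 1 count in each genotype at week 1 and 3 and 6 counts at week 4.

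**Figure D2:**
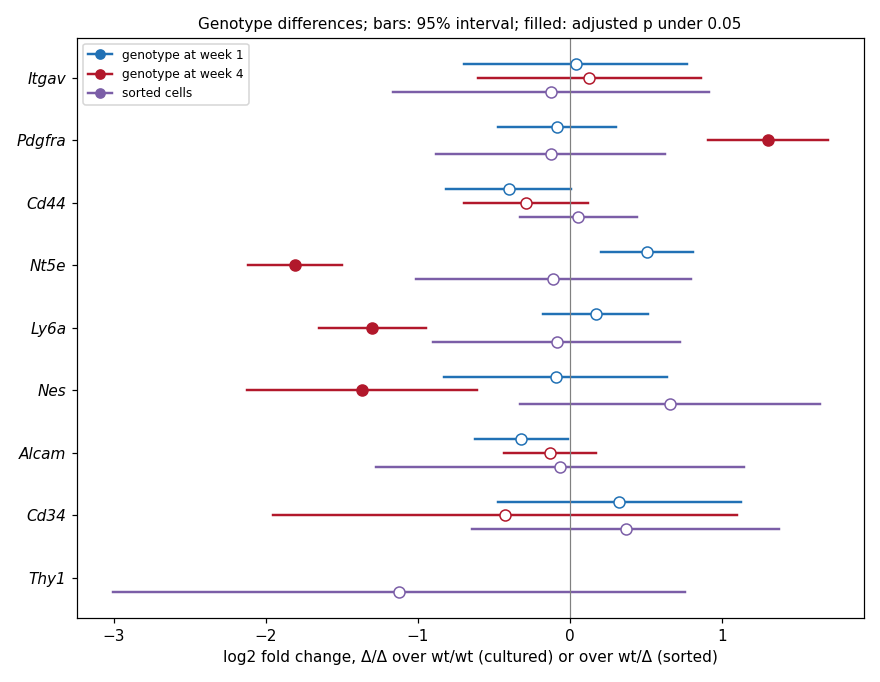
Log2 fold change of each tested marker between Δ/Δ and its control at week 1, at week 4 and in sorted cells (x axis), with bars for the 95% interval and filled points for an adjusted p under 0.05. The filled points are Pdgfra at 1.30 and Nt5e, Ly6a and Nes at -1.81, -1.30 and -1.37, all at week 4.

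The change from week 1 to week 4 of culture was then compared within each genotype. In wt/wt, 34% of all genes were called between week 1 and week 4 (17.9% higher, 16.1% lower at week 4), and 4 of the 8 markers were. Nt5e and Ly6a rose, and Cd34 and Cd44 fell. In Δ/Δ, 35.1% of genes were called (18.8% higher, 16.3% lower), and 6 of the 8 markers were. Pdgfra rose, and Ly6a, Nt5e, Nes, Cd34 and Cd44 fell. In both genotypes the number of markers called stands against a high background, and their single values are given for that reason. Both numbers include Cd34, which had enough counts for testing only through week 1, where it was higher.

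The opposite courses of Nt5e are plain in the single libraries. In wt/wt it rose from 11.5 to 13.0 CPM at week 1 to 31.0 to 40.3 CPM at week 4, a 2.80-fold difference (log2 1.48, standard error 0.14, adjusted p = 6.7e-06). In Δ/Δ it fell from 15.2 to 18.8 CPM to 9.08 to 10.8 CPM (-0.84, standard error 0.14, adjusted p = 6.2e-04). The weeks did not overlap in either genotype. Ly6a fell in Δ/Δ by 0.98 on the log2 scale (standard error 0.16, adjusted p = 5.0e-04). Its rise in wt/wt, 0.49 (standard error 0.16, adjusted p = 0.0308), was less secure. Same-numbered wt/wt libraries correlated over time at only 0.152 to 0.220, and the labels state no pairing. With that number as a block within the 6 wt/wt libraries, the rise of Ly6a was not called (0.49, adjusted p = 0.0944). Nor was it called without week 1 wt/wt replicate 1 or 2 or week 4 wt/wt replicate 2 or 3, where the adjusted p was 0.0631, 0.101, 0.0958 and 0.0825, or when only those 6 libraries were fitted (0.0848).

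Pdgfra rose in Δ/Δ from 96.2 to 128 CPM at week 1 to 193 to 259 CPM at week 4, with no overlap (log2 1.11, standard error 0.18, adjusted p = 4.7e-04). In wt/wt the weeks overlapped (-0.28, 95% interval -0.67 to 0.11, adjusted p = 0.253). Nes fell in Δ/Δ by 2.06 on the log2 scale (standard error 0.35, adjusted p = 7.2e-04). In wt/wt it differed by -0.79 (standard error 0.34, adjusted p = 0.0954), which was called with the replicate block over all 12 libraries (-0.88, adjusted p = 0.0489) and without both week 4 libraries numbered 1 (-0.44, adjusted p = 0.0169), but not with the block within the 6 wt/wt libraries (-0.90, adjusted p = 0.0824).

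Cd44 fell by 0.66 in wt/wt (standard error 0.19, adjusted p = 0.0166) and by 0.55 in Δ/Δ (standard error 0.19, adjusted p = 0.0395) on the log2 scale. In wt/wt the call was lost without week 1 replicate 3 (adjusted p = 0.0760), without week 4 replicate 2 (0.0558), without both week 4 libraries numbered 1 (0.0528) and with only the 6 libraries compared (0.0684). In Δ/Δ the adjusted p was 0.0827 to 0.122 when any single library other than week 4 Δ/Δ replicate 2 was left out, and the call was lost each time. Itgav had log2 differences of -0.76 in wt/wt (95% interval -1.49 to -0.02, adjusted p = 0.106) and -0.66 in Δ/Δ (95% interval -1.40 to 0.07, adjusted p = 0.150). The first was called with the block within the wt/wt libraries (-0.86, adjusted p = 0.0286) and without week 4 wt/wt replicate 3 (-1.05, adjusted p = 0.0478), and the second without week 4 Δ/Δ replicate 2 (-1.08, adjusted p = 0.0254). Alcam did not pass the test in either genotype, with intervals of -0.30 to 0.31 in wt/wt and -0.11 to 0.50 in Δ/Δ.

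Counts of Cd34 were lower at week 4 than at week 1. It went from 0.468 to 0.625 CPM at week 1 to 0.0709 to 0.135 CPM at week 4 in wt/wt (log2 -2.52, standard error 0.53, adjusted p = 0.0029). In Δ/Δ it went from 0.552 to 0.907 CPM to 0 to 0.0988 CPM (-3.27, standard error 0.48, adjusted p = 2.1e-04). These values rest on a few reads per library at week 4. Cd34 had enough counts for testing only through the week 1 libraries (10 to 22 counts each, against 0 to 8 at week 4). The tests over time could therefore hardly show a rise, and they are no support for a fall. For Thy1, untested, the level in Δ/Δ was 0.215 ± 0.0302 CPM at week 1 (SD, n = 3), and no read was counted at week 4. The limit of 3 counts over the week 4 group lies 9.97-fold below the week 1 mean. That mean rests on 14 counts, whose own error is not included, so the fold is not a strict bound.

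**Figure D3:**
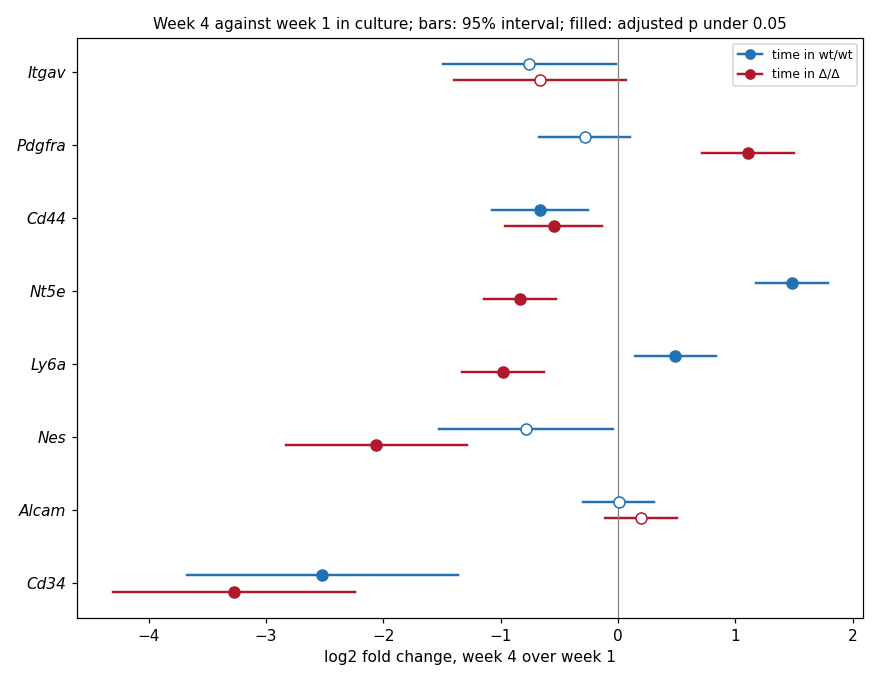
Log2 fold change from week 1 to week 4 of culture for the 8 tested markers, in wt/wt and in Δ/Δ, with bars for the 95% interval and filled points for an adjusted p under 0.05. Nt5e stands at 1.48 in wt/wt and -0.84 in Δ/Δ, and Pdgfra at -0.28 and 1.11.

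Whether the genotype difference itself differed between the weeks was tested as an interaction, which 7.15% of all genes passed (4.08% with a positive and 3.08% with a negative term). Of the 8 markers 3 passed, namely Nt5e with -2.32 on the log2 scale (standard error 0.20, adjusted p = 2.8e-05), Ly6a with -1.47 (standard error 0.23, adjusted p = 0.0016) and Pdgfra with 1.39 (standard error 0.25, adjusted p = 0.0046). All 3 were called in each of 19 alternative fits. Nes had -1.27 (standard error 0.48, adjusted p = 0.163), and was called without week 4 wt/wt replicate 1 (-1.61, adjusted p = 0.0106) and without both week 4 libraries numbered 1 (-1.31, adjusted p = 8.9e-04). For Itgav, Cd44, Alcam and Cd34 the interaction was not called, with adjusted p from 0.735 to 0.962.

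Over all 6 groups, Pdgfra was highest in Δ/Δ at week 4 (231 ± 34.02 CPM), followed by sorted wt/Δ (138 ± 55.7 CPM) and sorted Δ/Δ (127 ± 34.9 CPM), and lowest in wt/wt at week 4 (93.5 ± 21.3 CPM), each group overlapping the next. Nt5e was highest in wt/wt at week 4 (34.3 ± 5.21 CPM), clear of the next group, week 1 Δ/Δ (17.4 ± 1.89 CPM). It was lowest in Δ/Δ at week 4 (9.78 ± 0.915 CPM), clear of week 1 wt/wt (12.3 ± 0.792 CPM). Ly6a ran from 294 ± 51.5 CPM in wt/wt at week 4 to 67.3 ± 12.3 CPM in sorted Δ/Δ, and the Δ/Δ group of week 4 (119 ± 15.7 CPM) stood alone between the other cultured groups and the sorted cells.

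The genes whose course over the 12 cultured libraries was most like each marker were looked up among 9288 well-expressed genes, by the root mean square of the difference in centred log2 CPM. The nearest to Ly6a was Ly6c1 (0.189), followed by the glypican Gpc1 (0.225). The nearest to Pdgfra were Col10a1, a collagen of hypertrophic cartilage (0.162), and the sulfotransferase Chst15 (0.172). Those to Nt5e were Psma8, a proteasome subunit (0.209), and the transcription factor Mef2c (0.231), and those to Nes were Col11a1 (0.215) and the water channel Aqp1 (0.239). Itgav, Cd44 and Alcam had closer neighbours, with 0.0979 between Itgav and Faxc, 0.106 between Cd44 and Mapk1ip1l, and 0.0636 between Alcam and Glrx2. The nearest to Cd34 was the proliferation marker Mki67, at 0.329.

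The partners of the markers at week 4 were read in lists of ligands, co-receptors and relatives. Among 17 other surface proteins of stroma, all tested, 5 were higher in Δ/Δ (Eng, Dpp4, Vcam1, Lepr and Bst2) and 3 were lower (Cd200, Cd248 and Icam1), where 9.2% of all genes were higher and 6.46% lower. Their median log2 difference was 0.22, against 0.0024 over all genes. Eng (endoglin), a co-receptor for TGF-β family ligands, had 80.9 to 102 CPM in Δ/Δ and 3.44 to 6.19 CPM in wt/wt, a log2 difference of 4.20 (standard error 0.21, adjusted p = 2.6e-07). Vcam1, which tethers haematopoietic cells, differed by 1.66 (standard error 0.16, adjusted p = 1.4e-05) and Lepr, the leptin receptor of CAR cells, by 0.94 (standard error 0.16, adjusted p = 0.0015) on the log2 scale. Cd200, an immune-inhibitory ligand, was lower by -0.93 (standard error 0.14, adjusted p = 6.6e-04). All 6 CAR cell markers passed the same test as higher in Δ/Δ at week 4 (median log2 difference 1.03), and all 7 osteoblast markers as lower (median -3.32). Cxcl12, the chemokine that names CAR cells, had 0.96 (adjusted p = 8.6e-04), and Bglap, which encodes osteocalcin, had -4.17 (adjusted p = 5.6e-06).

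Around Itgav, 5 of 13 tested subunits and ligands were lower in Δ/Δ and 1, Mfge8, was higher, against 6.46% and 9.2% of all genes, and the median log2 difference was -0.47. Postn, the matrix protein periostin, fell by 2.30 on the log2 scale (standard error 0.22, adjusted p = 1.5e-05), from 196 to 279 CPM in wt/wt to 47.0 to 54.0 CPM in Δ/Δ. Itgb8, a β subunit that pairs with αV, had -1.38 (standard error 0.34, adjusted p = 0.0142). Its call was lost with only the 6 libraries compared and without any of 4 single libraries (Δ/Δ replicates 1 and 3, wt/wt replicates 2 and 3), with an adjusted p of up to 0.0770. Ltbp1, which holds latent TGF-β, had -0.58 (adjusted p = 0.0200), lost without Δ/Δ replicate 2 or 3. Tnc and Spp1 were also lower, the call of Spp1 being lost in 4 of 14 alternatives.

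Pdgfc and Pdgfa, which encode ligands of PDGFRα, were lower in Δ/Δ, the opposite direction to the receptor. Pdgfc had 75.3, 95.7 and 106 CPM in wt/wt and 32.2, 35.7 and 29.7 CPM in Δ/Δ at week 4 (log2 -1.50, standard error 0.13, adjusted p = 9.2e-06). Pdgfa had 76.6, 101 and 92.0 CPM in wt/wt and 44.3, 42.7 and 49.4 CPM in Δ/Δ (-0.98, standard error 0.15, adjusted p = 4.9e-04). Neither pair of groups overlapped. Of the 5 tested genes of this family, counting Pdgfra itself, 1 was higher and 2 were lower, with the same shares of all genes beside them (9.2% and 6.46%). Their median log2 difference was 0.29.

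Around Cd44, 2 of 11 genes of hyaluronan metabolism and binding were lower and none was higher. With 15.7% of all genes called, this count is near the background and is no result about the list, whose median log2 difference was -0.04. Has2, a hyaluronan synthase, fell by 0.98 on the log2 scale (standard error 0.16, adjusted p = 0.0011). Msn (moesin), which links CD44 to the cell cortex, had -0.42 (adjusted p = 0.0429) and lost the call in 9 of 14 alternatives.

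Around Nt5e, 3 of 11 genes of extracellular nucleotide and adenosine handling were lower and 1 was higher, against 6.46% and 9.2% of all genes, with a median log2 difference of -0.44. Entpd3, an enzyme that acts upstream of CD73 by breaking down ATP, had 87.3, 65.7 and 50.7 CPM in wt/wt and 0.0352, 0.642 and 0.130 CPM in Δ/Δ. This was the widest gap among all listed genes tested (log2 -8.38, standard error 0.58, adjusted p = 1.3e-06). Entpd3 had enough counts for testing only through the wt/wt libraries of week 4, where it was high. The direction of its test follows from that, and the count of lower genes includes it. At week 1 Entpd3 was low in both genotypes, with means of 0.0886 and 0.141 CPM, and it was at 104 and 85.8 CPM in sorted wt/Δ and Δ/Δ. Entpd1 (CD39), with the same kind of activity, was higher in Δ/Δ at low levels, with means of 3.97 against 1.31 CPM (1.58, standard error 0.17, adjusted p = 3.5e-05). Alpl was lower by -0.98 (adjusted p = 1.1e-04), and Adk, adenosine kinase, had -0.60 (adjusted p = 0.0117), lost with only the 6 libraries compared and without Δ/Δ replicate 3.

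Around Ngfr, 3 of 9 genes of neurotrophin signalling were higher and 1 was lower, against 9.2% and 6.46% of all genes, with a median log2 difference of 0.24. The receptors Ntrk2 and Ntrk3 had 2.16 and 1.08 on the log2 scale (adjusted p = 2.2e-04 and 0.0094), and the sorting receptor Sort1 had 1.56 (adjusted p = 7.1e-04). Sorcs2, of the same family as Sort1, fell by 2.22 (standard error 0.32, adjusted p = 4.3e-04). In the Ly6 family, Ly6a and Ly6c1 were the only called genes of 6 tested, both lower, against 6.46% of all genes. These 2 genes share some sequence, and the median log2 difference of the 6 was 0.22, of the opposite sign. Of the 2 tested genes of the Cd34 family neither was called, with Podxl2 at 0.06 (adjusted p = 0.814). Of 4 tested intermediate filament genes other than Nes, 1 was called, where 15.7% of all genes were, namely Des (desmin) at 1.75 (standard error 0.23, adjusted p = 1.8e-04). The median log2 difference of the 4 was 0.41.

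**Figure D4:**
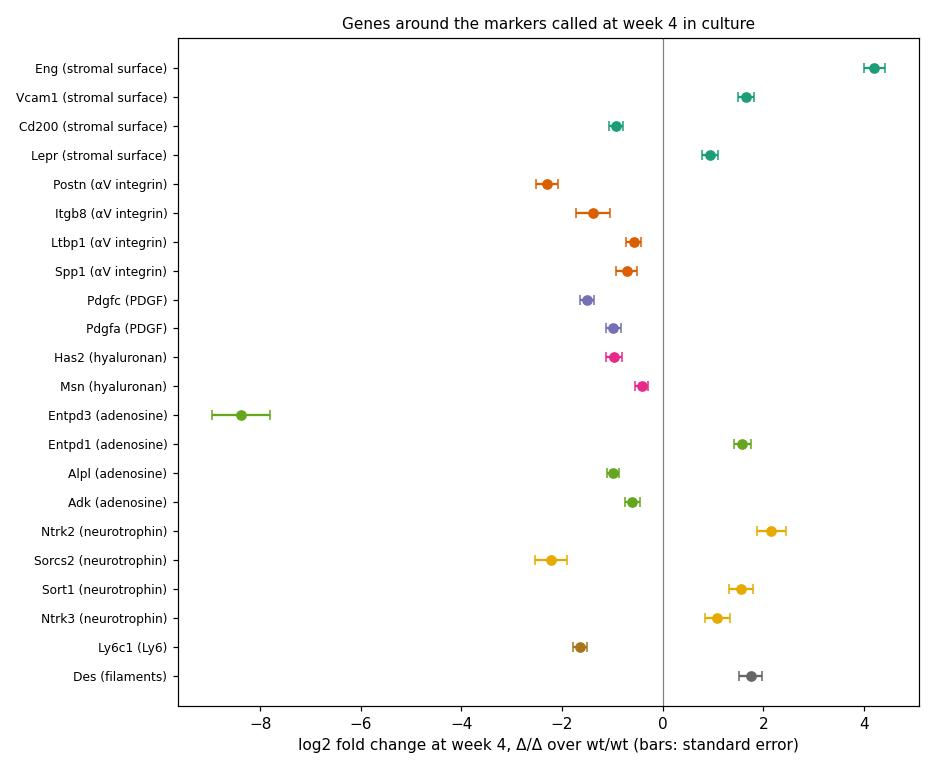
Log2 fold change between Δ/Δ and wt/wt at week 4 (x axis, bars for the standard error) of up to 4 called genes from each list around the markers, coloured by list. Eng and the neurotrophin receptor Ntrk2 are highest, at 4.20 and 2.16, and Entpd3, testable only through its wt/wt counts, lies far to the left at -8.38.

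In the cells sorted directly from mice, the same genotype question was asked in vivo. None of the 9 tested markers was called, and neither was any of the 14605 genes tested (0%), although 1792 had an unadjusted p under 0.05 and DESeq2 called 463 genes, none of them a marker (Alcam and Thy1 were given no adjusted p by DESeq2). Pdgfra had 138, 82.9 and 194 CPM in wt/Δ and 167, 101 and 113 CPM in Δ/Δ (log2 -0.13, 95% interval -0.88 to 0.63, adjusted p = 0.918). Nt5e had 10.2, 16.1 and 22.8 CPM in wt/Δ and 12.4, 10.3 and 22.9 CPM in Δ/Δ (-0.11, 95% interval -1.02 to 0.79). The groups of both genes overlapped. The values of culture at week 4, 1.30 for Pdgfra and -1.81 for Nt5e, lie outside these intervals. Differences within the intervals, of either sign, are not excluded. These intervals come from a fit without a sex term, although the groups differed in sex, as described below. With that term the log2 difference of Pdgfra was 0.61.

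Ly6a had 86.3, 93.5 and 34.7 CPM in wt/Δ and 81.3, 58.3 and 62.4 CPM in Δ/Δ (log2 -0.09, 95% interval -0.90 to 0.72). Nes had 6.47, 22.7 and 14.3 CPM in wt/Δ and 17.0, 25.9 and 25.7 CPM in Δ/Δ (0.66, 95% interval -0.33 to 1.64, adjusted p = 0.584), opposite in sign to culture but with an interval that includes 0. Itgav had 54.8, 40.3 and 149 CPM in wt/Δ and 61.6, 75.4 and 86.6 CPM in Δ/Δ (-0.12, 95% interval -1.16 to 0.92). Among the wt/Δ libraries, replicate 3 was the highest in Itgav and Pdgfra and the lowest in Ly6a.

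Cd34, almost absent from culture, was among the stronger markers here. It had 40.5, 133 and 145 CPM in wt/Δ and 175, 108 and 129 CPM in Δ/Δ, and only the first wt/Δ library was below the Δ/Δ range (log2 0.37, 95% interval -0.64 to 1.38). Cd44 was even across all 6 libraries, between 62.3 and 81.2 CPM (0.06, 95% interval -0.33 to 0.44). Alcam lay between 1.46 and 5.10 CPM. Thy1 had 0.755, 2.27 and 0.701 CPM in wt/Δ and 0.175, 0.943 and 0.595 CPM in Δ/Δ (-1.12, 95% interval -3.01 to 0.76), and Ngfr had 16 and 20 counts in all, too few for testing.

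The sorted libraries also differed in markers of other cells and in sex. Megakaryocyte markers summed to 1692 CPM in wt/Δ replicate 2 and 900.5 CPM in Δ/Δ replicate 3, against 36.02 to 91.8 CPM in the other 4. Without these libraries no marker was called, and the log2 differences were 0.61 for Cd34, 0.21 for Ly6a, -0.31 for Pdgfra and 1.05 for Nes. Endothelial markers, of cells that also express Ly6a and Cd34, summed to 1883 to 2241 CPM in wt/Δ and 2520 to 2726 CPM in Δ/Δ, so that these sums did not overlap between the groups. Nor did those of the 17 other surface proteins of stroma (6409.3 to 9062.5 CPM in wt/Δ, 9860.1 to 10315.6 CPM in Δ/Δ). No gene of either list was called, and these sums were read among those of many lists. Reads from Y-linked genes exceeded those of Xist in 2 of the 3 wt/Δ libraries and in none of the Δ/Δ libraries, which leaves 1 control library of the same sex, and sex and group can hardly be told apart. With a sex term in the fit the log2 difference was 0.89 for Itgav, 0.61 for Pdgfra and 0.01 for Nes, none of them called. The part of these differences in the markers' levels was not tested.

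**Figure D5:**
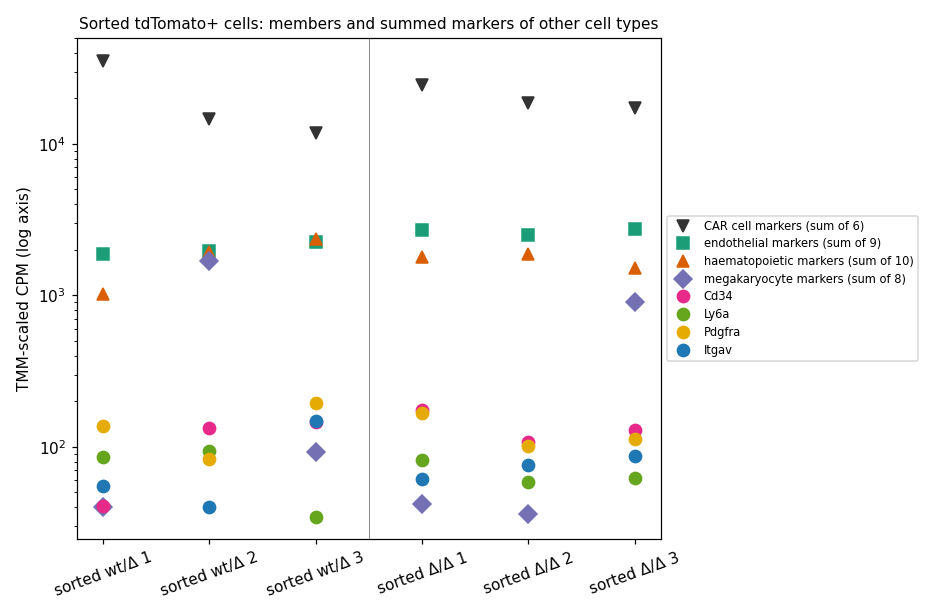
TMM-scaled CPM (log axis) of Cd34, Ly6a, Pdgfra and Itgav and the summed CPM of markers of CAR, endothelial, haematopoietic and megakaryocyte cells in each of the 6 libraries of sorted cells. Megakaryocyte markers stand out in wt/Δ 2 and Δ/Δ 3, and the 4 marker genes overlap between the groups, while the endothelial sums do not (1883 to 2241 CPM in wt/Δ, 2520 to 2726 CPM in Δ/Δ).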

How the data were processed

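Per the labels and the study's methods, cDNA was made with SMART-Seq v4 and Nextera XT, which keep no strand, and the authors aligned reads with HISAT2 2.0.4 to mm10 and counted them with featureCounts 1.6.3. The deposited values are whole-number read counts per gene, with no normalization, and every count column matched a sample. Groups follow the sample titles.

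Tests were run with edgeR 4.0.16 under R 4.3.3 (filterByExpr with a minimum count of 10, TMM, quasi-likelihood F test, Benjamini-Hochberg over all genes tested, threshold 0.05). The 12 cultured libraries were fitted together as 4 groups, and the 6 sorted libraries on their own. Standard errors come from the F statistic, and 95% intervals from the fit's degrees of freedom. Fits were tested on simulated counts. Exon lengths and coordinates are from GENCODE on GRCm38, and promoters from RefSeq.

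The markers and gene lists were chosen with earlier results of these data known. Named genes were all 10 markers, up to 4 called genes of each list with the smallest p (2 where none was called) and the 2 nearest genes in pattern. Mfge8, Tnc, Dpp4, Bst2, Cd248 and Icam1 are named from counts of their lists only. Cxcl12 and Bglap were chosen after their values were seen.

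Replicates differed by more than counting error (chi-squared per degree of freedom 10.8 to 376 over 18 pairs). The labels number the replicates but state no pairing. Deviations from the group means of same-numbered libraries correlated at 0.152 to 0.220 over time in wt/wt, so these were treated as paired in an alternative. They correlated at -0.238 to 0.177 over time in Δ/Δ, -0.0794 to 0.0517 between genotypes at week 1, -0.0835 to 0.636 at week 4 and 0.0250 to 0.0740 in sorted cells, so those were not. Alternatives were RLE scaling, library size only, joint TMM factors, 2 other filters, DESeq2 1.42.0, replicate blocks, other thresholds, fits restricted to the 6 libraries of a comparison, a sex term and leaving out libraries. Leaving out both week 4 libraries numbered 1 or the libraries rich in megakaryocyte markers, and the block within wt/wt, were added after the data were seen.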

Additional observations from a re-analysis of the deposited data

Results flagged for a closer look

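The genotype difference of 3 markers differed between week 1 and week 4 of culture by the interaction term of the edgeR fit. For Nt5e, the difference between Δ/Δ and wt/wt moved by -2.32 on the log2 scale (adjusted p = 2.8e-05), from 0.51 at week 1 to -1.81 at week 4. For Ly6a it moved by -1.47 (adjusted p = 0.0016), from 0.17 to -1.30. For Pdgfra it moved by 1.39 (adjusted p = 0.0046), from -0.09 to 1.30. With 3 libraries per group, single libraries were not tested for standing apart.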

How the results depend on the processing

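Of the 17 calls made for the markers over all comparisons, 13 held in every alternative in which the gene was tested, and the other 4 (Nes between genotypes at week 4, Cd44 over time in both genotypes and Ly6a over time in wt/wt) were lost in at least 1. The calls of Cd34 over time are among those that held, but Cd34 could be tested only through its week 1 counts. No called value changed sign. The number of markers called at week 1 was 1 with DESeq2 instead of 0. Over time in wt/wt it was 2 instead of 4 with only the 6 libraries compared, 2 at a threshold of 0.01, and 2 to 4 when each library was left out in turn. With the replicate number as a block the number called was 0 at week 1, 4 at week 4, 5 over time in wt/wt, 6 over time in Δ/Δ, 3 for the interaction and 0 in sorted cells, and the block within the 6 wt/wt libraries gave 4. The block changed no call but those of Nes, Itgav and Ly6a over time in wt/wt and that of Msn at week 4.

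The differences that changed sign were all of genes not called. With each library left out in turn, the log2 difference of Itgav ran from -0.11 to 0.15 at week 1, from -0.31 to 0.43 at week 4, from -0.34 to 0.39 for the interaction and from -0.45 to 0.65 in sorted cells. That of Alcam ran from -0.089 to 0.085 over time in wt/wt and from -0.38 to 0.32 in sorted cells, and that of Cd44 from -0.065 to 0.38 for the interaction and from -0.019 to 0.17 in sorted cells. In sorted cells the ranges were -0.029 to 0.66 for Cd34, -0.42 to 0.15 for Ly6a, -0.53 to 0.20 for Nt5e and -0.39 to 0.20 for Pdgfra, and at week 4 the range was -0.013 to 0.12 for Podxl2. Other settings that turned a sign were at least 10 counts in every library (Alcam over time in wt/wt, -0.0076), leaving out both week 4 libraries numbered 1 (interaction of Itgav and Cd44, -0.027 and -0.038), library size only (sorted Ly6a and Alcam, 0.011 and 0.0049), the replicate block (sorted Ly6a and Itgav, 0.022 and 0.10), a sex term (sorted Itgav and Pdgfra, 0.89 and 0.61) and dropping the 2 megakaryocyte-rich libraries (sorted Ly6a and Cd44, 0.21 and -0.026). The cause was not tested. Cd34, Thy1 and Ngfr in culture are limited by depth, with 0 to 22 counts per library.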
